A study of Homo sapiens with 24 samples.

Results

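The comparison described here is the knockdown of SFPQ in cells given TGF-beta, which sets 6 libraries labelled siSFPQ with TGF-beta against 6 libraries labelled siCTL with TGF-beta, paired by cell line. The members were chosen by the titles of the samples, and they are 12 of the 24 libraries of the series. Polyadenylated RNA was sequenced from 6 lines derived from human liver tumours, with 1 library per line and group. The lines are HLE, SK-HEP1, HepG2, Huh7, Huh1 and Hep3b. In the siSFPQ group the cells received an siRNA against SFPQ and 24 hours of TGF-beta (2 ng per ml). In the siCTL group they received a control siRNA and the same TGF-beta. The other 12 libraries are the same lines and siRNAs with no TGF-beta. They are used for the knockdown response without TGF-beta, for the test of the difference, and in describing depth and the pairing by line. All cells were grown in medium with serum. Knockdown is transient and partial, and the labels name no second siRNA, so an effect of SFPQ loss and an effect of this siRNA on other transcripts cannot be told apart.

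SFPQ is a nuclear protein of the DBHS family (Drosophila behaviour and human splicing), together with NONO and PSPC1. It binds RNA and DNA, pairs with its relatives, takes part in transcription and splicing, and is built with the long noncoding RNA NEAT1 into nuclear bodies called paraspeckles. In mouse brain its loss is known to lower transcripts of very long genes. The growth factor TGF-beta binds the receptors TGFBR1 and TGFBR2, which activate SMAD2 and SMAD3. With SMAD4 these enter the nucleus and switch genes on or off, among them genes that stop the cell cycle, favour apoptosis or build extracellular matrix. The title of the series places SMAD4 in condensates of SFPQ, and the comparison asks which transcripts differ when SFPQ is lowered while TGF-beta is present.

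Values are FPKM (sequenced fragments relative to transcript length and to the size of the library) as deposited. Changes are differences of log2(FPKM + 1), siSFPQ minus siCTL, averaged over the 6 lines, so 1 is a doubling for well expressed genes and low genes are understated. A gene is said to have risen or fallen where limma, with the cell line as a block, gave an adjusted p under 0.05 over all genes tested. Relative depth, estimated from low genes, ranged from 0.363 in the Huh7 siSFPQ library to 1.74 in the Hep3b siSFPQ library, on a scale where the Hep3b siCTL library is 1. With 1 library per line and group, p-values measure the spread of the response between lines. The labelled cell types were checked against 38 hepatocyte markers. The Huh1, Huh7 and HepG2 libraries had 32 to 36 of them at 1 FPKM or more. HLE had 17 and 10 of them in the siSFPQ and siCTL libraries, and SK-HEP1 had 11 in each. The libraries labelled Hep3b had 9 and 12, with ALB (albumin) at 0.514 FPKM in the siSFPQ library and 0.942 FPKM in the siCTL library and HNF4A at 0.483 and 0.790 FPKM. Hep3b is known as an albumin-secreting line, so these libraries go against their label, and counts of list members called without them are given where they differ. Over all 12 libraries the immune gene PTPRC was at most at 0.0634 FPKM and the endothelial gene PECAM1 at most at 0.702 FPKM. Other markers of both kinds were expressed. The 14 immune markers summed to 393 FPKM in the Huh7 siSFPQ library, and the 12 endothelial markers to 109 FPKM in the HepG2 siSFPQ library.

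SFPQ averaged 38.1 ± 10.4 FPKM in siSFPQ cells and 158 ± 59.0 FPKM in siCTL cells (SD, n = 6 each). It was lower in the siSFPQ library of every line and the groups did not overlap, with a change of -1.97 (SE 0.25, adjusted p = 0.00241). HLE kept the least, 26.5 FPKM in siSFPQ against 248 FPKM in siCTL cells, or 10.7% of the control level. SK-HEP1 kept 16.4%, with 28.2 FPKM against 172 FPKM, and Hep3b kept 22.9%, with 37.5 FPKM against 163 FPKM. These 3 lines had the deepest knockdown. Huh7 kept 30.6%, with 54.6 FPKM against 178 FPKM. HepG2 kept 43.8% and Huh1 kept 44.8%, with 44 FPKM against 100.5 FPKM in HepG2 and 38 FPKM against 84.7 FPKM in Huh1. The lines also differed in how many genes passed a 2-fold change. HLE and SK-HEP1 had 332 and 322 genes at least 2-fold higher and 1027 and 1064 at least 2-fold lower. The other 4 lines had 55 to 204 higher and 68 to 332 lower. These numbers come from 1 library pair per line and carry no test, and Hep3b, with the third lowest remaining SFPQ, had 55 higher and 187 lower.

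**Figure D1:**
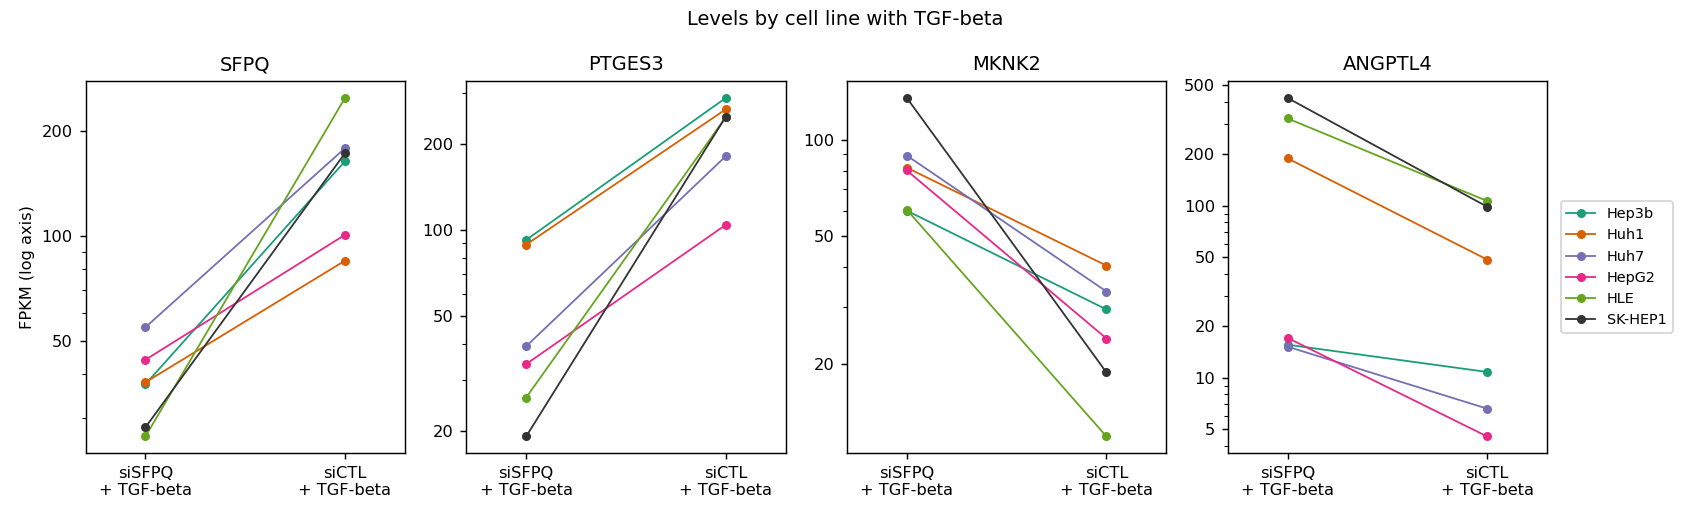
Levels of SFPQ, PTGES3, MKNK2 and ANGPTL4 in FPKM on a log axis, siSFPQ on the left and siCTL on the right of each panel, both with TGF-beta; each line joins the 2 libraries of a cell line. SFPQ and PTGES3 are lower and MKNK2 and ANGPTL4 higher in the siSFPQ library of all 6 lines, and the groups overlap only for ANGPTL4.

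Of 12020 genes tested, 3639 changed (30.3%), 1018 upward (8.47%) and 2621 downward (21.8%). The typical change was small: the median size among the genes called was 0.49 on the log2 scale, and only 53 genes (0.441%) rose and 209 (1.74%) fell by 2-fold or more. Of the 3639, 3094 had the same sign in 6 of 6 lines. The excess of falls moved with the scaling of the libraries. The median of all genes was -0.09 as deposited, and scaling to a common median ratio raised all changes by 0.11, which gave 1707 rises (14.2%) and 1577 falls (13.1%), with 91 and 140 at 2-fold or more. Removing each library's GC trend gave 1835 rises (15.8%) and 1517 falls (13.1%) among 11582 genes. Counts of list members below are to be read beside these shares, as deposited or after the same rescaling. Without the libraries labelled Hep3b 2934 genes were called, 810 up and 2124 down, and without SK-HEP1 2315 were called. FPKM of the 2 groups did not overlap at all for 93 genes (0.774%), and the lines differed from each other in level for most genes.

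The 15 deepest falls, taken only from genes lower in all 6 lines, were in genes of unlike function. PTGES3, which encodes the Hsp90 co-chaperone p23, had 19.1 to 92.3 FPKM (median 36.7) in siSFPQ cells and 104 to 288 FPKM (median 247) in siCTL cells. The 2 groups did not overlap, and the change was -2.29 (SE 0.28, adjusted p = 0.0024). STMN1 encodes stathmin, a protein that destabilises microtubules. It had 22.1 to 93.3 FPKM (median 40.9) in siSFPQ cells and 60.4 to 445 FPKM (median 221) in siCTL cells, a change of -2.10 (SE 0.36, adjusted p = 0.00542), with overlap only through the low Huh1 and HepG2 controls. In SK-HEP1 STMN1 stood at 23.9 FPKM in siSFPQ against 445 FPKM in siCTL cells, and in Huh1 at 32 against 60.4 FPKM. RTN3, a reticulon of the endoplasmic reticulum, had 8.70 to 30.3 FPKM (median 21) in siSFPQ cells and 44.8 to 110.2 FPKM (median 78.4) in siCTL cells, again without overlap, and changed by -2.01 (SE 0.22, adjusted p = 0.00233). UHMK1, a kinase known to phosphorylate stathmin, fell by 1.66 on the log2 scale (adjusted p = 0.00381), with 3.15 to 14.1 FPKM (median 8.37) in siSFPQ cells and 14.5 to 45.4 FPKM (median 27.9) in siCTL cells and no overlap. TNPO3, the import receptor of SR splicing factors, had 3.60 to 16.7 FPKM (median 10.0) in siSFPQ cells and 24.9 to 37.1 FPKM (median 27.9) in siCTL cells. Its groups did not overlap either, and the change was -1.64 (SE 0.21, adjusted p = 0.00259). PPP6R1, a regulatory subunit of protein phosphatase 6, fell by 1.63 and SENP3, a nucleolar SUMO protease, by 1.62 (adjusted p = 0.00208 and 0.00194), both without overlap. FAF1, a Fas-associated factor and the last of the 7 genes of this set without overlap, fell by 1.82 (adjusted p = 0.00461).

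The other 7 of the 15 largest falls overlapped between groups, and a lower value in 6 of 6 lines was a condition of their choice. They were CFDP1 (-1.87), the Rab GTPase-activating protein TBC1D5 (-1.77), the methyltransferase SMYD3 (-1.71), the mitochondrial protein CMC1 (-1.66), PEMT, which makes phosphatidylcholine (-1.62), C4orf34 (-1.61) and the kinase anchor AKAP2 (-1.74). AKAP2 shares reads with a read-through gene, so its level is uncertain. TBC1D5 had 0.226 to 4.73 FPKM (median 1.97) in siSFPQ cells and 4.49 to 17.3 FPKM (median 7.27) in siCTL cells. The siSFPQ libraries of HLE, SK-HEP1 and Hep3b lay under 1 FPKM, and those of Huh1, Huh7 and HepG2 kept 3.08 to 4.73 FPKM. Several of these genes are very long: TBC1D5 spans 1288 kb, SMYD3 758 kb and FAF1 523 kb in the GENCODE annotation.

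Among the 15 rises, taken only from genes higher in all 6 lines, the largest was in MKNK2. This gene, for a kinase downstream of MAP kinases that phosphorylates the translation factor eIF4E, had 60.0 to 135 FPKM (median 80.9) in siSFPQ cells and 11.9 to 40.4 FPKM (median 26.7) in siCTL cells. The groups did not overlap, and the change was 1.69 (SE 0.22, adjusted p = 0.0028). BICD2, a dynein adaptor, was the only other gene among the 15 largest rises without overlap, with 14.3 to 22 FPKM (median 19.4) in siSFPQ cells and 4.19 to 10.1 FPKM (median 6.24) in siCTL cells and a change of 1.42 (SE 0.15, adjusted p = 0.00233). RHOB, a small GTPase, had 225 to 1249 FPKM (median 359) in siSFPQ cells and 62 to 532 FPKM (median 123) in siCTL cells. HepG2 was highest in both groups, and the change was 1.55 (SE 0.26, adjusted p = 0.00487). DUSP1, a phosphatase that switches MAP kinases off, had 67.2 to 429 FPKM (median 125) in siSFPQ cells and 29.2 to 96.7 FPKM (median 50.9) in siCTL cells, a change of 1.39 (SE 0.14, adjusted p = 0.00233). The salt-inducible kinase SIK1 (1.38), the autophagy kinase ULK1 (1.36) and the transcription factor FOXP4 (1.57) also rose. So did the galactosyltransferase B4GALT1 (1.5), the RNA-binding protein HABP4 (1.52), OGFR (1.51) and TBKBP1 (1.36), a partner of the kinase TBK1. NBL1, a BMP antagonist, rose by 1.65, but it shares reads with a read-through gene and is uncertain. In all 15 rises and all 15 falls the largest change was in HLE or SK-HEP1. The same held for 69.1% of all genes that rose, 79.5% of those that fell and 60.4% of all genes tested. The named genes were ranked by their mean over the same lines, so this carries no test. Changes were widest in HLE and SK-HEP1 (SD over genes 0.644 and 0.632, beside 0.336 to 0.465 in the other lines).

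**Figure D2:**
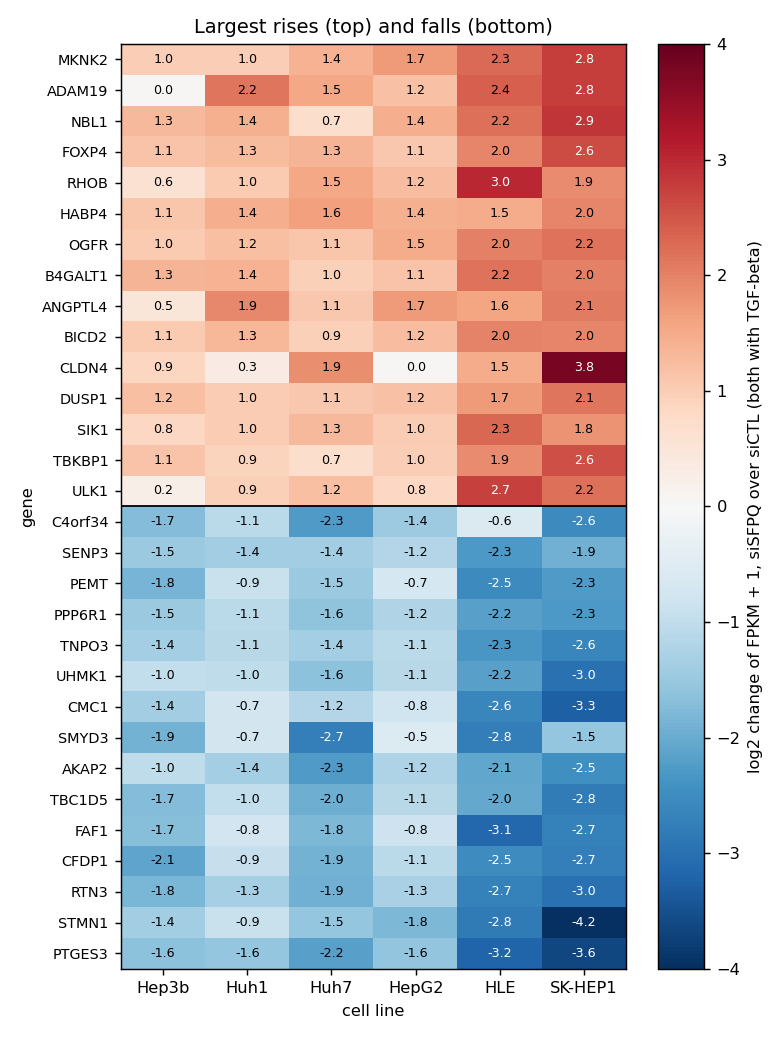
Change of log2(FPKM + 1), siSFPQ minus siCTL with TGF-beta, in each cell line (columns) for the 15 largest rises and 15 largest falls (rows), on a colour scale from -4 to 4. The columns of HLE and SK-HEP1 hold the strongest colours, and CLDN4 and ADAM19 have a line with almost no change.

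TGF-beta target genes were the list with the largest share of rises. Of 34 targets tested, 19 rose (55.9%) and 1 fell, beside 8.47% higher and 21.8% lower of all genes, and their median change was 0.53, beside -0.09. Scaling to a common median ratio gave 23 rises and 1 fall, and without the libraries labelled Hep3b 20 rose and 1 fell. Without 1 of the other lines 15 to 18 rose. ADAM19, a metalloproteinase, had 0.0471 to 442 FPKM (median 13) in siSFPQ cells and 0.018 to 83.1 FPKM (median 2.91) in siCTL cells, near 0 in the libraries labelled Hep3b and highest in HLE, and changed by 1.68 (SE 0.30, adjusted p = 0.0063). IL11, a cytokine, rose by 1.49 and PDGFB, a platelet-derived growth factor chain, by 1.41 (adjusted p = 0.0116 and 0.019). CTGF and CYR61 encode matricellular proteins that also respond to YAP. CTGF had 15 to 249 FPKM (median 168) in siSFPQ cells and 5.90 to 161 FPKM (median 65.2) in siCTL cells, with Hep3b lowest in both, and changed by 1.07 (SE 0.13, adjusted p = 0.0024). CYR61 changed by 1.36 (SE 0.23, adjusted p = 0.00496). ITGAV, the integrin subunit that helps free latent TGF-beta, had 38.6 to 305 FPKM (median 165) in siSFPQ cells and 23 to 177 FPKM (median 86.3) in siCTL cells, a change of 0.96 (SE 0.11, adjusted p = 0.0024). NEDD9, an adhesion scaffold, had 2.94 to 140.4 FPKM (median 18.5) in siSFPQ cells and 0.287 to 120.1 FPKM (median 6.52) in siCTL cells, with HLE and SK-HEP1 lowest in both groups, and changed by 1.16 (SE 0.18, adjusted p = 0.00415). TGFB1 itself rose by 0.87, JUNB by 1.06, RUNX1 by 0.57 and the feedback repressors SKI and SKIL by 0.40 and 0.39. SKI and SKIL belong to the list of receptors and SMADs as well. HMGA2, an architectural chromatin protein, was the target that fell (-0.84 (SE 0.23, adjusted p = 0.0264)), a call that did not hold without Huh7, HLE or SK-HEP1. The SKIL call held without Huh7 but not with any other line left out. Classical targets did not all follow: SMAD7, which blocks the receptors, had a mean change of -0.02 (adjusted p = 0.934). SNAI1 did not pass as deposited but did without Hep3b (1.41, adjusted p = 0.0382), without HLE (0.68, adjusted p = 0.0288) and after common scaling (adjusted p = 0.0424). It had a change of 1.17 with an adjusted p of 0.0511, and its per-line changes ranged widely, from -0.00 in Hep3b to 3.65 in HLE.

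**Figure D3:**
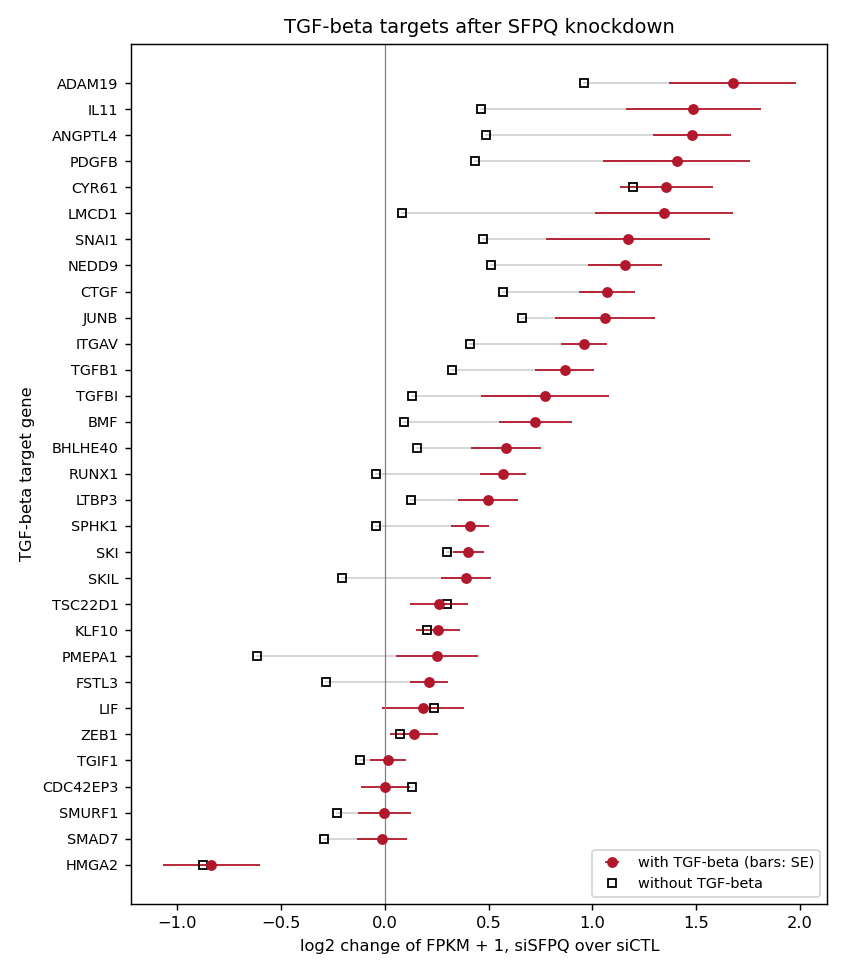
Change of log2(FPKM + 1), siSFPQ minus siCTL, for the TGF-beta targets tested in both settings, with 1 of them not shown; filled points with TGF-beta (bars are SE over 6 lines), open squares without. Most filled points lie right of 0 and right of their squares, with HMGA2 far left of 0.

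Upstream of the targets, 6 of 22 receptor, SMAD and repressor genes rose (27.3%) and 2 fell (9.09%), and the median was 0.08. Of all genes tested 8.47% rose and 21.8% fell. TGFBR1 had 6.11 to 15.4 FPKM (median 13) in siSFPQ cells and 4.01 to 10.1 FPKM (median 7.13) in siCTL cells, higher in all 6 lines, and changed by 0.74 (SE 0.14, adjusted p = 0.00636). TGFBR2 rose by 0.69 (adjusted p = 0.00687) and the activin receptor ACVR2B by 0.59 (adjusted p = 0.00575). BMPR2, the type II receptor for bone morphogenetic proteins, went the other way, with 1.20 to 11.6 FPKM (median 3.15) in siSFPQ cells and 4.05 to 18.4 FPKM (median 11.6) in siCTL cells and a change of -1.31 (SE 0.22, adjusted p = 0.00487). SMURF2, a ubiquitin ligase that removes the receptors, rose by 0.46, and ACVR1 fell by 0.31. The ACVR1 call did not hold without Hep3b, Huh1, HepG2 or SK-HEP1, or after either rescaling. Without the libraries labelled Hep3b 5 rose and 1 fell. SMAD4, the shared partner of the receptor-activated SMADs, had 6.18 to 10.1 FPKM (median 7.32) in siSFPQ cells and 5.84 to 10.0 FPKM (median 6.98) in siCTL cells, a change of 0.07 (SE 0.08, adjusted p = 0.515), which did not pass the test.

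Genes through which TGF-beta halts the cell cycle were divided. Of 20 in the cytostatic list 3 rose (15%) and 3 fell (15%), beside 8.47% and 21.8% of all genes. The median was -0.01 as deposited and 0.12 after common scaling. That scaling gave 5 rises and 2 falls, beside 14.2% and 13.1% of all genes. Without the libraries labelled Hep3b 2 rose and 4 fell, and without Huh7 1 rose and 2 fell. CDKN1A, the inhibitor p21, had 5.71 to 432 FPKM (median 136) in siSFPQ cells and 4.36 to 355 FPKM (median 159) in siCTL cells. It was higher in 5 lines and lower in Hep3b, with 79.8 FPKM in the siSFPQ and 137 FPKM in the siCTL library, and its change of 0.12 did not pass the test (adjusted p = 0.57). CDKN2B, the inhibitor p15, changed by 0.30 (SE 0.12, adjusted p = 0.0876) and did not pass either, although it does so once GC trends are removed (adjusted p = 0.0221). It was listed at 0 in the HLE siSFPQ library and at 0.0132 FPKM in the HLE siCTL library. CDKN2C, the inhibitor p18, fell, with 1.68 to 32.2 FPKM (median 3.0) in siSFPQ cells and 3.55 to 46.2 FPKM (median 12.9) in siCTL cells and a change of -1.06 (SE 0.22, adjusted p = 0.00948). RBL2 and RBL1, relatives of the retinoblastoma protein, changed by -0.69 and -0.60. ID1 and ID3, inhibitors of basic helix-loop-helix factors that TGF-beta is known to repress, rose by 0.52 and 0.79, as did MYC by 0.49. Without the libraries labelled Hep3b CDKN1A rose by 0.29 (adjusted p = 0.039). The MYC call held only without Huh1, and that of RBL1 only without Hep3b, among fits with a line left out, and RBL1 missed the threshold after either rescaling. The ID3 call did not hold without Hep3b, Huh1 or Huh7 (adjusted p of 0.0503, 0.0520 and 0.0622).

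Of 17 genes in the apoptosis list 5 rose (29.4%) and 3 fell (17.6%), beside 8.47% and 21.8% of all genes, with a median of 0.12. The risers were BH3-only genes and survival genes side by side. BCL2L11 (BIM) had 3.49 to 37 FPKM (median 12.5) in siSFPQ cells and 1.80 to 18.8 FPKM (median 8.15) in siCTL cells, higher in every line, and changed by 0.66 (SE 0.11, adjusted p = 0.00448). BBC3 (PUMA) changed by 0.87 (SE 0.18, adjusted p = 0.0107). BMF, a further BH3-only gene, had a median of 32.8 FPKM in siSFPQ cells and of 18.2 FPKM in siCTL cells, higher in 5 lines and lower in Hep3b, and changed by 0.73 (SE 0.18, adjusted p = 0.0171). BCL2L1 and MCL1, which block apoptosis, rose by 0.39 and 0.38, and the MCL1 call did not hold without Huh1, Huh7, HepG2 or HLE. DAXX, a death-domain-associated protein, fell, with 11.8 to 31.4 FPKM (median 21) in siSFPQ cells and 21.1 to 47.7 FPKM (median 39.1) in siCTL cells and a change of -0.80 (SE 0.11, adjusted p = 0.00299). BIRC5 (survivin), a mitotic gene as well, fell by 0.97.

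Mitotic genes were the list with the largest share of falls. Of 32 G2/M and spindle genes 29 fell (90.6%, beside 21.8% of all genes tested), all 32 had a negative change, and the median was -0.81. Common scaling left 22 falls and removal of GC trends 24. With Hep3b left out 31 fell, but without Huh7 17 did and without SK-HEP1 11. TOP2A, the topoisomerase that untangles chromosomes, had 5.51 to 56.4 FPKM (median 33.5) in siSFPQ cells and 13.8 to 147 FPKM (median 94.3) in siCTL cells and changed by -1.52 (SE 0.26, adjusted p = 0.00512). Huh1 was lowest in both groups, and the groups overlapped only through its low siCTL library. TPX2, which activates Aurora A on the spindle, had 14.6 to 48.9 FPKM (median 30.4) in siSFPQ cells and 28.4 to 161 FPKM (median 80.6) in siCTL cells, a change of -1.44 (SE 0.27, adjusted p = 0.00652). HMMR, a spindle-associated hyaluronan receptor, had 1.65 to 8.63 FPKM (median 4.82) in siSFPQ cells and 2.90 to 34.5 FPKM (median 14.8) in siCTL cells, a change of -1.47 (SE 0.30, adjusted p = 0.00925). CCNB1 and CCNB2, the mitotic cyclins, fell by 0.74 and 0.70, CDK1 by 0.86, AURKA by 0.81, PLK1 by 0.83 and the proliferation marker MKI67 by 0.92. Without SK-HEP1 the calls of CCNB1, CDK1, PLK1 and MKI67 did not hold, nor did that of CDK1 without Huh1 or that of MKI67 without Huh7. The lines were unequal: the median change of the 32 genes was -1.93 in HLE, -1.04 in SK-HEP1, -0.72 in Huh7, -0.69 in Huh1, -0.40 in HepG2 and -0.04 in Hep3b. In such bulk RNA, fewer cells in mitosis and less of these transcripts per cell cannot be told apart.

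Promoters of mitotic genes are known to carry a CHR element and CCAAT boxes, so the stretch from 250 bases before to 50 bases after the start of each gene was searched in RefSeq sequences of GRCh38.p14, on both strands, for TTTGAA and for CCAAT. Sequences were found for 26 of the 32 genes. TTTGAA occurred in 17 of them (65.4%), CCAAT in 20 (76.9%) and both in 15 (57.7%). Among 8560 genes tested with a promoter in the table the shares were 9.32%, 37.1% and 4.05%. Of 32 G1/S promoters 6.25% held TTTGAA and 53.1% CCAAT, and of the promoters of all genes that fell 12.4% held TTTGAA. Promoters are shown only from genes holding both TTTGAA and CCAAT, so they are not typical of the list, where 15 of 26 held both. TPX2, TTK and AURKA had a smaller p by limma than CCNB2 and are not shown. The promoters shown are those of TOP2A and HMMR, which fell most in the list, and of the cyclin gene CCNB2. Capitals mark TTTGAA or CCAAT on either strand (TTCAAA and ATTGG on the printed one), and in HMMR a CCAAT and an ATTGG overlap. The promoters shown lie at chr17:40417847-40418146 (minus strand), chr5:163460382-163460681 (plus strand) and chr15:59104896-59105195 (plus strand).
TOP2A: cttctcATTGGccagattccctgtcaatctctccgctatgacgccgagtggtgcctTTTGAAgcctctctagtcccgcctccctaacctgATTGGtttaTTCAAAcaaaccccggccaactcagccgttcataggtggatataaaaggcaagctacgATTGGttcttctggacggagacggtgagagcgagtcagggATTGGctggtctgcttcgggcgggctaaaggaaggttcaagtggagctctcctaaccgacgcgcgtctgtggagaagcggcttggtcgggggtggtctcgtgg
HMMR: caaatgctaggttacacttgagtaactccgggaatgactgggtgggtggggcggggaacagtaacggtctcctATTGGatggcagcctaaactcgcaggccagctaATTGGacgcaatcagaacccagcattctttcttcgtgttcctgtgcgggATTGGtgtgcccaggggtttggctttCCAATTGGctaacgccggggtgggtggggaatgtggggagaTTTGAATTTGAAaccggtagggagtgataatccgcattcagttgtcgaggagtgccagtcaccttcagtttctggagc
CCNB2: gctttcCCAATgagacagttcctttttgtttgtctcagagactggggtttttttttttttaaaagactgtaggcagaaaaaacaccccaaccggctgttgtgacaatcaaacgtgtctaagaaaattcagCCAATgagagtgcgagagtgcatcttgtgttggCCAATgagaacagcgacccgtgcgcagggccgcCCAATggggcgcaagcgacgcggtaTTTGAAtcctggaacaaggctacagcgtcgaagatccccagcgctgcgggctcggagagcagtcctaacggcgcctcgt
A match is a run of letters and says nothing of binding. In HMMR and CCNB2 the TTTGAA runs lie 22 to 29 bases before the annotated start, and in TOP2A they lie 194 and 151 bases before it.

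Genes of the G1/S phase and DNA replication fell too, 19 of 37 (51.4%, beside 21.8% of all genes), with a median of -0.57. There were 16 falls and 1 rise after common scaling, where 13.1% of all genes fell. Without SK-HEP1 12 fell and without the libraries labelled Hep3b 21. CCND1, cyclin D1, fell in every line, with 36.8 to 164 FPKM (median 72.5) in siSFPQ cells and 75.1 to 511 FPKM (median 159.9) in siCTL cells and a change of -1.37 (SE 0.15, adjusted p = 0.0024). HLE was highest in both groups. PCNA, the sliding clamp of DNA polymerase, had 18.9 to 123 FPKM (median 55.9) in siSFPQ cells and 28.4 to 183 FPKM (median 117) in siCTL cells, a change of -0.74 (SE 0.13, adjusted p = 0.00615). TK1, thymidine kinase, changed by -1.05 (SE 0.21, adjusted p = 0.00846), and POLA2, a subunit of DNA polymerase alpha, by -0.54 (SE 0.11, adjusted p = 0.00911).

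Of 30 homologous recombination and Fanconi genes 18 fell (60%, beside 21.8% of all genes), with a median of -0.51. Common scaling left 12 falls. Without SK-HEP1 7 fell, without HLE 11, and without the libraries labelled Hep3b 20. RAD51B, a recombination protein, was low throughout but did not overlap, with 0.12 to 1.10 FPKM (median 0.614) in siSFPQ cells and 1.11 to 3.10 FPKM (median 1.78) in siCTL cells, a change of -0.85 (SE 0.13, adjusted p = 0.00376). FANCD2, the protein whose ubiquitination marks crosslink repair, had 1.35 to 7.94 FPKM (median 2.71) in siSFPQ cells and 4.96 to 16.1 FPKM (median 9.26) in siCTL cells, a change of -1.15 (SE 0.20, adjusted p = 0.00581). BRCA1 fell by 0.84, BRCA2 by 0.48 and FANCC by 1.03. Without SK-HEP1 the calls of FANCC and BRCA2 did not hold, and that of BRCA2 was also lost without Huh7 or HLE and after either rescaling. Many of these genes are cell-cycle regulated, and the medians by line followed the order of the mitotic list at its ends, -1.19 in HLE and -0.08 in Hep3b.

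**Figure D4:**
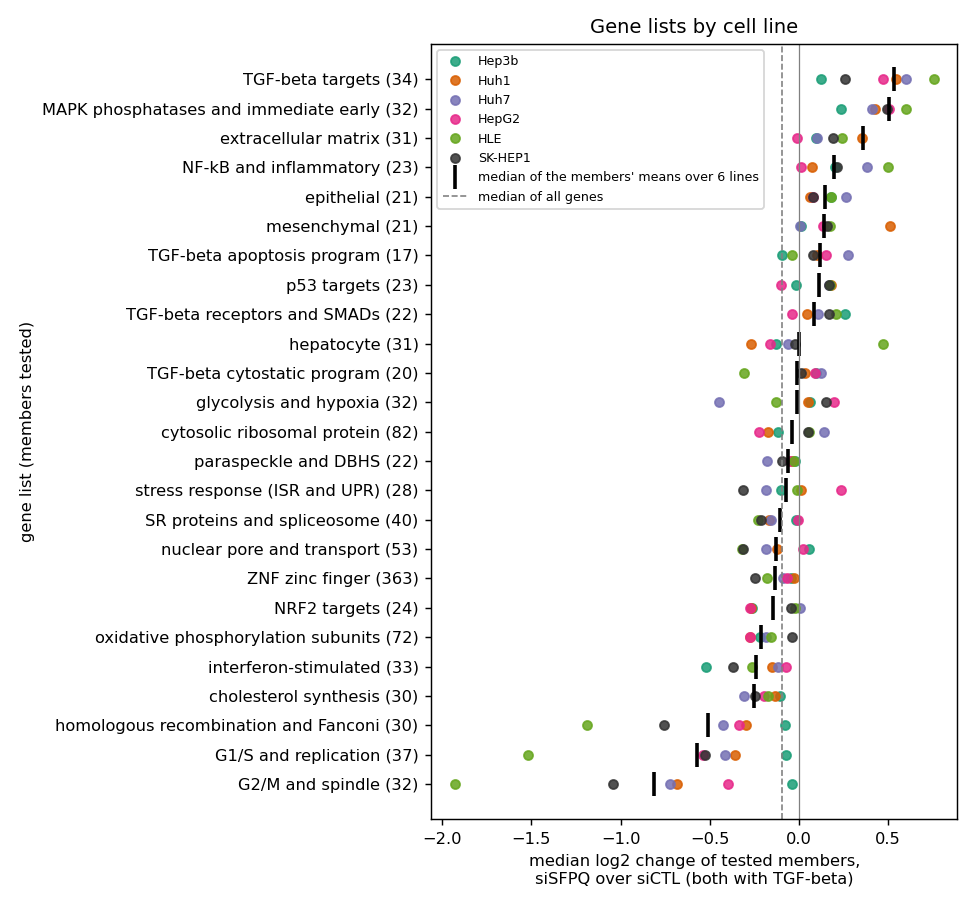
Median log2 change, siSFPQ minus siCTL with TGF-beta, of the tested members of each gene list (rows, with the number tested); coloured points are the 6 cell lines, black bars the median of the members' mean changes and the dashed line the median of all genes. The 3 cell-cycle and repair lists at the bottom spread from -0.04 in Hep3b to -1.93 in HLE, while the TGF-beta targets are above 0 in all 6 lines.

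Of 32 immediate early genes and MAP kinase phosphatases tested 17 rose (53.1%, beside 8.47% of all genes) and 1 fell, with a median of 0.51. Whichever line was left out, 15 to 17 rose. IER2 had 47 to 106 FPKM (median 85.6) in siSFPQ cells and 27.3 to 55.2 FPKM (median 34.5) in siCTL cells, higher in all 6 lines, and changed by 1.07 (SE 0.12, adjusted p = 0.00233). IER3, which restrains apoptosis, changed by 0.98 (SE 0.12, adjusted p = 0.00241) and SPRY4, an inhibitor of receptor tyrosine kinase signalling, by 1.01 (SE 0.13, adjusted p = 0.00268). DUSP5 and DUSP10, phosphatases of the DUSP1 family, rose by 0.93 and 0.91, ZFP36, which destabilises AU-rich messages, by 0.77 and KLF2 and KLF6 by 0.94 and 0.66. DUSP9, a phosphatase for ERK, was the member that fell, by 0.70.

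NF-kB genes rose in part, 6 of 23 (26.1%, beside 8.47% of all genes), with a median of 0.20. Rises numbered 3 without HLE, 4 without Huh7 or SK-HEP1, 5 without the libraries labelled Hep3b and 7 after common scaling. NFKB1 had 16.4 to 39.9 FPKM (median 29.7) in siSFPQ cells and 12.4 to 25.4 FPKM (median 18.3) in siCTL cells, a change of 0.56 (SE 0.09, adjusted p = 0.004), and RELB changed by 0.60 (SE 0.13, adjusted p = 0.0116). CSF1, the macrophage growth factor, had 8.97 to 366 FPKM (median 42.3) in siSFPQ cells and 4.42 to 151 FPKM (median 11.7) in siCTL cells, higher in 6 lines and highest in Huh1, and changed by 1.20 (SE 0.19, adjusted p = 0.00448). Interferon-stimulated genes leaned the other way, with 6 of 33 falls (18.2%, not above the 21.8% of all genes) and a median of -0.24. Common scaling left 4 falls, 5 genes fell without the libraries labelled Hep3b and 3 without Huh1 or SK-HEP1. The falls included the immunoproteasome subunits PSMB9, with 0.959 to 17.8 FPKM (median 9.58) in siSFPQ cells and 1.56 to 46.5 FPKM (median 16.7) in siCTL cells and a change of -0.96 (SE 0.14, adjusted p = 0.00325), and PSMB8, with a change of -0.81 (SE 0.16, adjusted p = 0.00804).

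Partners of SFPQ did not change together. NONO had 97.6 to 358 FPKM (median 248) in siSFPQ cells and 115 to 339.7 FPKM (median 242) in siCTL cells, 3 lines higher and 3 lower, and a change of -0.02 (SE 0.07, adjusted p = 0.875). PSPC1 rose in all 6 lines, with 0.346 to 113 FPKM (median 52.9) in siSFPQ cells and 0.257 to 80.5 FPKM (median 37.3) in siCTL cells and a change of 0.51 (SE 0.13, adjusted p = 0.0173). In HLE it stood at 0.346 and 0.257 FPKM in the siSFPQ and siCTL libraries, far below the 26.5 FPKM or more of every other library. NEAT1 had 49.6 to 515 FPKM (median 285) in siSFPQ cells and 48.7 to 326 FPKM (median 131) in siCTL cells, higher in 6 lines though barely in Huh7, and changed by 0.67 (SE 0.15, adjusted p = 0.0113). Of 22 paraspeckle genes 4 rose (18.2%) and 4 fell (18.2%), beside 8.47% and 21.8% of all genes. TAF15 and EWSR1, FET-family RNA-binding proteins, fell by 0.99 and 0.72, and HNRNPR and CPSF6 by 0.38 and 0.26. The CPSF6 call was lost with any line left out and after either rescaling. MATR3 and HNRNPA1 rose by 0.31 and 0.37, and HNRNPA1 has many processed copies that could share its reads. The median of the list was -0.06 as deposited and 0.07 after common scaling, which gave 7 rises and 3 falls. Excluding Hep3b, 4 rose and 3 fell.

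SR proteins and spliceosome genes had 11 falls (27.5%, beside 21.8% of all genes) and 1 rise (2.5%, beside 8.47%) among 40. Their median of -0.10 turned to 0.02 after common scaling. That scaling gave 5 falls and 4 rises, where 13.1% of all genes fell and 14.2% rose. Over the 5 lines other than Hep3b 9 fell and 0 rose, and without Huh7, HLE or SK-HEP1 7 fell. SRSF4, an SR splicing factor, had 15.7 to 30.3 FPKM (median 19.5) in siSFPQ cells and 23.1 to 54.3 FPKM (median 36.2) in siCTL cells, a change of -0.74 (SE 0.13, adjusted p = 0.00542). PRPF31, a core protein of the tri-snRNP, changed by -0.74 (SE 0.13, adjusted p = 0.00559), SNRPE, an Sm protein, by -0.41 (SE 0.09, adjusted p = 0.0104) and TRA2B by -0.47 (SE 0.11, adjusted p = 0.0152). The SNRPE call did not hold once GC trends were removed (adjusted p = 0.0548).

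In 3 large gene families a few members fell far below their relatives. Of 72 oxidative phosphorylation subunits 37 fell (51.4%, beside 21.8% of all genes) and 1 rose, with a median of -0.21. Common scaling left only 12 falls and GC removal 13, where 13.1% of all genes fell in each. Leaving out a line gave 21 falls without Hep3b, 22 without Huh1, 23 without Huh7, 24 without HepG2, 27 without HLE and 36 without SK-HEP1. NDUFB1 (-1.49), NDUFC1 (-1.48), NDUFB10 (-1.45) and SDHA (-1.43) stood apart, while the other 68 lay between -0.88 and 0.25 with a median of -0.21. The first 3 belong to complex I of the respiratory chain and SDHA is the flavoprotein of complex II. NDUFB10 had 27.5 to 101 FPKM (median 44.4) in siSFPQ cells and 80.5 to 241 FPKM (median 114) in siCTL cells, a change of -1.45 (SE 0.18, adjusted p = 0.0024). SDHA had 12.7 to 37 FPKM (median 23.3) in siSFPQ cells and 49.5 to 116 FPKM (median 60.9) in siCTL cells, without overlap, and a change of -1.43 (SE 0.14, adjusted p = 0.00194), but it has near-identical pseudogene copies and its level is uncertain. NDUFA9, next below the rest, changed by -0.88 (SE 0.11, adjusted p = 0.0024).

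Nuclear pore and transport genes had 15 falls (28.3%, beside 21.8% of all genes) and 2 rises (3.77%, beside 8.47%) among 53. Fewer than 2 rose without Hep3b, Huh7, HepG2, HLE or SK-HEP1. The median of -0.13 was -0.00311 after common scaling, with 9 falls and 7 rises, and 0.02 after GC removal, so the direction of the family as a whole depends on the scaling. Without Hep3b 13 fell and 0 rose, without Huh7 or HLE 9 fell and without SK-HEP1 8. TNPO3, described above, and TMEM48, a transmembrane protein that anchors the pore, were the deepest. TMEM48 had 4.93 to 14.8 FPKM (median 6.19) in siSFPQ cells and 11.8 to 28 FPKM (median 22) in siCTL cells, a change of -1.33 (SE 0.18, adjusted p = 0.00304). The other 51 members lay between -0.77 and 0.32. The import adaptor KPNA2 fell by 0.77, the export receptor XPO1 by 0.45 and the basket protein TPR by 0.70, while IPO5 and KPNA3 rose by 0.32 and 0.22. The KPNA3 call was lost with any line left out, that of IPO5 without Hep3b, HLE or SK-HEP1, and that of TPR without Huh7, HLE or SK-HEP1.

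Of 82 cytosolic ribosomal protein genes 12 fell (14.6%), under the 21.8% of all genes. Their median of -0.04 turned to 0.09 after common scaling, with 4 falls, where 13.1% of all genes fell. With Hep3b left out 9 fell. RPS6 and RPL21 had changes below -1, and the other 80 lay between -0.79 and 0.29. RPL21, a multicopy gene, had a change of -1.29 (SE 0.87, adjusted p = 0.278) that did not pass the test. RPS6, the subunit phosphorylated by S6 kinase, had 197 to 1115 FPKM (median 563) in siSFPQ cells and 619 to 2099 FPKM (median 1424) in siCTL cells and a change of -1.34 (SE 0.19, adjusted p = 0.00325). It was lower in every line. RPS21, the next by p, changed by -0.43 (SE 0.06, adjusted p = 0.00325). Ribosomal protein genes have many processed copies, so how reads were shared among them is uncertain. The calls of RPS26 and RPL23A did not hold after common scaling (adjusted p = 0.0658 and 0.0686). Zinc finger genes named ZNF, 363 tested, had 65 falls (17.9%) and 17 rises (4.68%), both under the shares of all genes. Common scaling gave 37 rises and 39 falls for the same genes and GC removal 39 rises and 33 falls, so the excess of falls depends on the scaling.

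**Figure D5:**
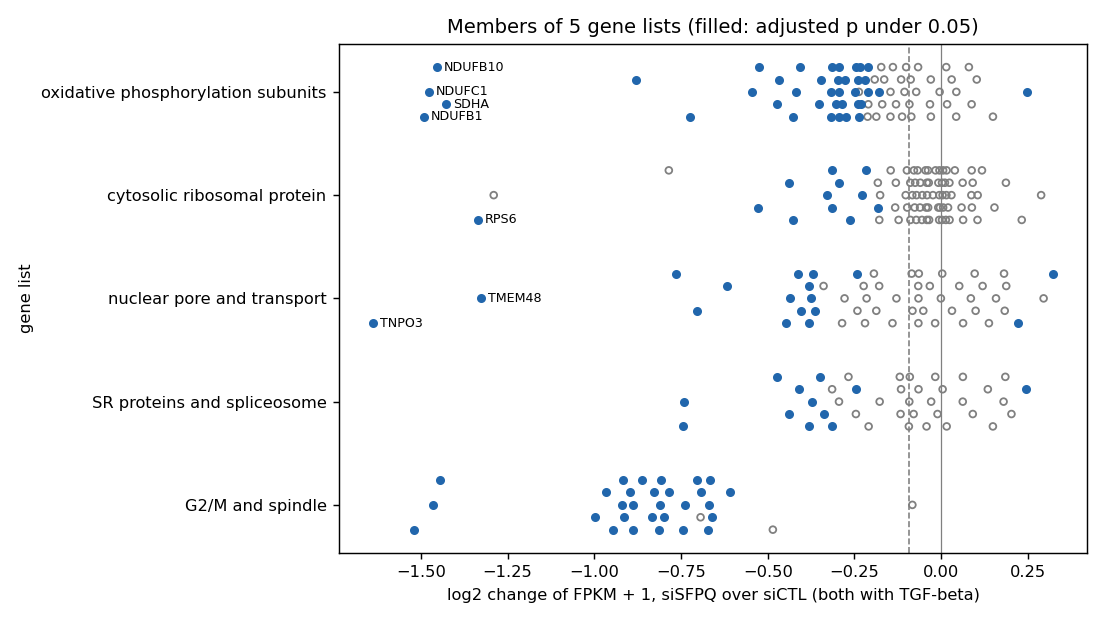
Change of log2(FPKM + 1), siSFPQ minus siCTL with TGF-beta, for each tested member of 5 gene lists (rows; vertical position within a row only separates points); filled points have an adjusted p under 0.05 and the dashed line is the median of all genes. In the 3 upper lists 1 to 4 named members lie below -1, far left of their relatives, while the mitotic list is shifted as a whole.

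Among metabolic genes, those of cholesterol synthesis leaned downward as a list. They had 14 falls (46.7%, beside 21.8% of all genes) and 2 rises among 30, with a median of -0.25. A negative change was seen in 23 of the 30. Common scaling left 9 falls, beside 13.1% of all genes. Excluding Hep3b, 12 fell and 1 rose. PMVK, phosphomevalonate kinase, had 5.97 to 27 FPKM (median 9.85) in siSFPQ cells and 11 to 43.7 FPKM (median 19.5) in siCTL cells, lower in 6 lines, and changed by -0.88 (SE 0.11, adjusted p = 0.0024). ACAT2 changed by -0.74 (SE 0.10, adjusted p = 0.00318) and MVK, mevalonate kinase, by -0.51 (SE 0.08, adjusted p = 0.00452). SREBF1, a regulator of lipid genes, rose by 0.35, but did not pass without HepG2. Of 24 NRF2 targets 7 fell (29.2%, beside 21.8% of all genes) and 2 rose (8.33%, beside 8.47%), and common scaling left 4 falls. Fewer than 2 rose without any line but HepG2. GCLM, a subunit of the enzyme that begins glutathione synthesis, changed by -0.94 (SE 0.12, adjusted p = 0.0024), and OSGIN1 by -0.70 (SE 0.12, adjusted p = 0.00531). Glycolysis and hypoxia genes had 4 falls (12.5%) and 2 rises (6.25%) among 32, both under the shares of all genes, and 2 falls and 3 rises after common scaling. Among the rises was the glucose transporter SLC2A3 with a change of 0.89 (SE 0.16, adjusted p = 0.00631).

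Of 28 genes of the unfolded protein and integrated stress responses 5 fell (17.9%) and 2 rose (7.14%), both under the shares of all genes. After common scaling 3 fell and 4 rose. XBP1, a transcription factor of the unfolded protein response, had 7.55 to 124 FPKM (median 39.2) in siSFPQ cells and 39.3 to 236 FPKM (median 81.4) in siCTL cells, a change of -1.27 (SE 0.18, adjusted p = 0.00325). It was lower in all 6 lines. DNAJB9, a chaperone of the endoplasmic reticulum, changed by -1.0 (SE 0.15, adjusted p = 0.00395) and PHGDH, which opens serine synthesis, by -1.11 (SE 0.20, adjusted p = 0.0065). DDIT4, an inhibitor of mTORC1, rose, with 144 to 653 FPKM (median 199) in siSFPQ cells and 28.2 to 396 FPKM (median 92.1) in siCTL cells and a change of 1.32 (SE 0.27, adjusted p = 0.00948). Of 23 p53 targets 4 rose (17.4%) and 2 fell (8.70%), beside 8.47% and 21.8% of all genes. After common scaling 5 rose and 1 fell. Over the 5 lines other than Hep3b 6 rose and 1 fell, 1 fell without HepG2 or SK-HEP1, and 3 fell without Huh7. RRM2B, a p53-inducible ribonucleotide reductase subunit, fell (-1.23 (SE 0.16, adjusted p = 0.0024)), while the death receptor TNFRSF10B rose (0.65 (SE 0.12, adjusted p = 0.00561)) along with BBC3 and the kinase PLK3 (0.77).

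Genes of epithelial and mesenchymal state rose on both sides. Of 21 mesenchymal genes 5 rose (23.8%) and 3 fell (14.3%), beside 8.47% and 21.8% of all genes. The median was 0.14, and 3 rose without Huh1, Huh7 or SK-HEP1. Without Huh7 or SK-HEP1 1 fell. Common scaling gave 7 rises and 1 fall, and without the libraries labelled Hep3b 5 rose and 2 fell. The FN1 call did not hold without Hep3b, Huh1 or Huh7, nor that of CALD1 without Huh7 or SK-HEP1. ITGA5, the fibronectin receptor subunit, had 6.65 to 342 FPKM (median 161) in siSFPQ cells and 2.99 to 176 FPKM (median 74.6) in siCTL cells, a change of 0.88 (SE 0.13, adjusted p = 0.00348). FN1, fibronectin, rose by 0.68, and CALD1 and MYL9, of the contractile apparatus, fell by 1.03 and 0.45; the MYL9 call was lost after common scaling (adjusted p = 0.0612). Of 21 epithelial genes 4 rose (19.0%, beside 8.47% of all genes) and 0 fell, with a median of 0.14. Rises numbered 7 after common scaling, where 14.2% of all genes rose, and 5 without the libraries labelled Hep3b. KRT8, a keratin of simple epithelia, had 1305 to 3702 FPKM (median 2167) in siSFPQ cells and 965 to 2853 FPKM (median 1358) in siCTL cells, a change of 0.57 (SE 0.08, adjusted p = 0.0028). TJP1, a tight junction scaffold, changed by 0.45 (SE 0.09, adjusted p = 0.00703). CLDN4, a tight junction claudin, changed by 1.39 (SE 0.42, adjusted p = 0.033), from 0.03 in HepG2 up to 3.81 in SK-HEP1, and its call did not hold without Huh7 or HLE (adjusted p = 0.0837 and 0.0603).

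Of 31 extracellular matrix genes 8 rose (25.8%, beside 8.47% of all genes) and 2 fell (6.45%, beside 21.8%), with a median of 0.36. There were 10 rises and 1 fall after common scaling, and 13 rises and 1 fall after GC removal. Without Hep3b 7 rose and 2 fell. Without Huh1 or Huh7 3 rose and without HepG2 5. PLOD2, a collagen lysyl hydroxylase, had 87.1 to 197 FPKM (median 179.7) in siSFPQ cells and 61 to 127 FPKM (median 104) in siCTL cells, higher in all 6 lines, and changed by 0.70 (SE 0.08, adjusted p = 0.0024). COL1A1, a fibrillar collagen chain, had 4.85 to 90.9 FPKM (median 31) in siSFPQ cells and 2.12 to 43.5 FPKM (median 17.3) in siCTL cells, a change of 0.98 (SE 0.18, adjusted p = 0.00618). HSPG2 (perlecan) fell, with a change of -0.85 (SE 0.19, adjusted p = 0.0122). COL1A1 is also among 12 stellate and fibroblast markers, of which 4 were tested, 2 rose and 1, RGS5, fell, the fall being lost without Huh1, HepG2 or SK-HEP1, not tested without the others, and lost after either rescaling; the other rise was PDGFRB (1.05 (SE 0.16, adjusted p = 0.00418)). The summed level of these markers ranged from 21.2 to 338 FPKM in siSFPQ libraries and from 12 to 226 FPKM in siCTL libraries, and its part in the matrix result was not tested. Of 12 endothelial and 14 immune markers only 2 each were expressed enough to be tested, and of these ESAM rose by 0.72, a call that did not hold without Huh1, HepG2 or HLE (adjusted p of 0.0567, 0.0657 and 0.0508).

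Hepatocyte genes gave a single call. Of 31 tested 1 fell, FOXA1, a liver pioneer factor, with a change of -0.36 (SE 0.11, adjusted p = 0.0319) that did not hold without Huh1, Huh7, HepG2 or HLE or after either rescaling. The median was -0.000818. With Hep3b left out 1 rose and 1 fell, and after common scaling 1 rose and 0 fell. Apolipoprotein APOA2 had 1.59 to 2977 FPKM (median 240.4) in siSFPQ cells and 1.47 to 2225 FPKM (median 121) in siCTL cells, a change of 0.71 (SE 0.25, adjusted p = 0.0558) that did not pass the test, though it passed without Hep3b (0.84, adjusted p = 0.047) and after either rescaling (adjusted p = 0.0365 and 0.0292). HLE differed from the other lines: its median over the list was 0.47, and its summed level of 38 markers was 231 FPKM in the siSFPQ and 76.3 FPKM in the siCTL library.

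The knockdown response with TGF-beta was set beside the response without it, which used the other 12 libraries of the same lines. Without TGF-beta 2608 of 12010 genes changed (21.7%), 804 upward (6.69%) and 1804 downward (15%), and common scaling gave 1177 and 1345. Leaving out Huh7, HLE or SK-HEP1 gave 1661, 1341 or 1369 calls there. Of 11830 genes tested in both settings, 594 rose in both, which is 59.3% of the rises with TGF-beta and 74.2% of those without. A further 1560 fell in both, 59.7% of the falls with and 87.0% of those without. Only 2 genes that rose with TGF-beta fell without it. Across genes the changes had a rank correlation of 0.90, over the same lines and siRNAs. The difference itself was tested in 24 libraries. By limma, 34 of 13493 genes differed (0.252%), 30 with a higher change under TGF-beta (0.222%) and 4 with a lower one (0.0296%). The number depends on the lines: it was 13 without Hep3b, 8 without Huh1, 22 without HepG2, 11 without HLE and 10 without SK-HEP1. SFPQ itself did not pass this test, with a difference of 0.12 (SE 0.06, adjusted p = 0.461).

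TGF-beta targets were among the genes that differed. Without TGF-beta 7 of 32 targets rose and 1 fell, with a median of 0.14, where 6.69% of all genes rose. With it 19 of 34 rose, with a median of 0.53, where 8.47% of all genes rose. These counts come from separate tests over differing sets of genes. The difference was past the threshold for 3 of 36 targets, ANGPTL4, RUNX1 and SKIL, beside 0.252% of all genes tested. Its median over the list was 0.48, beside -0.03 over all genes. ANGPTL4, a secreted inhibitor of lipoprotein lipase, had 15.2 to 423 FPKM (median 103) in siSFPQ cells with TGF-beta and 4.55 to 106 FPKM (median 29.7) in siCTL cells with TGF-beta. Its change was 1.48 with and 0.49 without TGF-beta, a difference of 0.99 (SE 0.13, adjusted p = 0.0196) with the same sign in 6 of 6 lines, as for all 34 genes called. That call did not hold without Hep3b, Huh1 or HLE (adjusted p of 0.0902, 0.0986 and 0.0616). RUNX1 had changes of 0.57 and -0.04 and SKIL of 0.39 and -0.21 with and without TGF-beta. By limma both differences had an adjusted p of 0.0333. By contrast CYR61 rose in both settings, by 1.36 and 1.19, and its difference was 0.16 (SE 0.10, adjusted p = 0.525). BMF changed by 0.73 with TGF-beta and 0.09 without, and this difference of 0.63 (SE 0.18, adjusted p = 0.229) did not pass the test. PLOD2 changed by 0.70 with and 0.17 without TGF-beta, a difference of 0.53 (SE 0.05, adjusted p = 0.00607).

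Other genes that differed by the smallest p are less tied to TGF-beta. TMEM160, a mitochondrial membrane protein, rose by 0.68 with TGF-beta and had a change of -0.46 without it (adjusted p = 0.0297), a difference of 1.14 (SE 0.10, adjusted p = 0.00199). C4orf48 (0.79), PLSCR3 (0.88), a phospholipid scramblase, the adhesion receptor GPR56 (0.76), the nuclear receptor NR2F6 (0.54), ANKRD9 (0.64), PRR24 (0.95) and ZNF579 (0.58) also had a higher change with TGF-beta in 6 of 6 lines. Every one of the 34 genes called had 1 sign in 6 of 6 lines, so such agreement adds no support. The G2/M, G1/S and repair lists had median differences of -0.06, -0.01 and -0.01. By limma no member of them differed at the adjusted threshold, and 2 members of each had an unadjusted p under 0.05.

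The response was set beside gene length and base composition. Annotation by symbol was found for 11582 of the 12020 genes (96.4%). Genes that fell by 2-fold or more had a median span of 65.5 kb, and 41.5% of them exceeded 100 kb. Genes that rose by 2-fold or more had a median span of 15.2 kb, and 3.77% exceeded 100 kb, beside 31.0 kb and 17.8% for all genes tested. Over all genes the relation was slight: the quintile with the longest spans, from 90.3 kb, had 25.2% falls and 7.55% rises, and the quintile with the shortest 20.1% and 8.16%. The rank correlation across genes was -0.08, smaller than its SD of 0.103 over lines, and it was -0.00103 once GC trends were removed and -0.0202 among genes with every library at 1 FPKM or more. By line, the longest quintile had medians of -0.26 in HLE, -0.21 in SK-HEP1 and -0.17 in Huh7, and of -0.08 in HepG2, -0.04 in Hep3b and -0.01 in Huh1. GC content had a rank correlation of 0.17 with the change. The quintile with the highest GC content had 13.9% rises and 13.3% falls, and the quintile with the lowest 7.08% and 24.5%. Removing each library's GC trend also recentred it: the median change moved by 0.13, beside 0.11 for common scaling. The part of GC in the single-gene results therefore cannot be told apart from that of the scaling. The calls of HNRNPR, CPSF6, SNRPE, ACVR1, RBL1, BRCA2, RPS26, RPL23A, RGS5 and FOXA1, all described above, missed the threshold after this removal. Of these, HNRNPR and SNRPE passed by limma after common scaling (adjusted p = 0.0466 and 0.036).

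The lines differed in size or direction of the change for some genes. By the spread of the per-line change among well expressed genes the most variable included SEMA3C, PDGFB, SNAI1 and AKR1B10. SEMA3C, a secreted semaphorin, stood at 6.30 FPKM in the siSFPQ and 42.7 FPKM in the siCTL library of HLE, but at 6.22 and 3.36 FPKM in Huh7. AKR1B10, an aldo-keto reductase, stood at 12.3 and 2.05 FPKM in Huh7 and at 32.8 and 70.1 FPKM in HepG2, lower with siSFPQ in HepG2 and higher in Huh7. PDGFB was higher in 5 lines and was lower in Hep3b, at 14.8 FPKM in siSFPQ and 19.1 FPKM in siCTL cells. These are values of 1 library pair per line, chosen for their spread, and the differences between lines carry no test.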

How the data were processed

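Polyadenylated RNA was measured in 24 libraries, of which the 12 with TGF-beta are compared. The table deposited by the authors is named as raw counts but holds FPKM. Per the submitters' processing notes TopHat2 2.1.1, Cufflinks 2.2.1 and the builds hg19 and GRCh37 were used. The annotation is not given in the sources used here. FPKM sums were dominated by short RNA (MIR4461 took 33.6% to 51.6%), so 1627 of 23284 rows for short RNA were left out, and estimates under 1e-06 were set to 0. The table's 2 empty columns were not used.

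Values were taken as log2(FPKM + 1) and tested with limma 3.58.1 (R 4.3.3), each cell line being a block, with trended and robust shrinkage. P-values were adjusted by Benjamini and Hochberg's method over every gene that reached 1 FPKM in at least 6 of the libraries compared, and those under 0.05 are called. The difference between settings was fitted on 6 per-line differences. The labels name the line of each library, so lines pair them: deviations from group means correlated between 0.874 and 0.978 within a line and between -0.514 and 0.410 for libraries differing in line and group. Depth was estimated from 2369 single-transcript genes with an assumed fragment length of 180 bases and is approximate. Its use was to describe libraries, and low genes in shallow libraries are the least precise. The labels name no batch. Gene span and GC content came from GENCODE v29 (GRCh38) by symbol, and promoters from RefSeq.

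Genes were named by a rule: SFPQ, its partners and 5 TGF-beta genes, the 15 largest rises and the 15 largest falls (called, log2 level averaging at least 1, all 6 lines of 1 sign), up to 4 members per list by p, the 10 genes of smallest p for the difference, and the 6 with the widest spread between lines. Read-through, antisense and multicopy rows were passed over, RPL21, H3F3A and BCYRN1 as multicopy after their values were seen. Further list members are named as called or for contrast, chosen after their values were seen. Some genes the rule named are not reported here. Members and lists were chosen with earlier results of these data known. The fit was tested on simulated data. Alternatives were other pseudocounts, filters, scaling, GC removal, short RNA kept, no shrinkage options, no block and each line left out.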

Additional observations from a re-analysis of the deposited data

Results flagged for a closer look

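Of 81 sets of 6 per-line values searched for a line far from the others, 6 had one. Chance alone gives about 5% for independent sets. These sets share libraries and members, and some were chosen for their spread or size, so that rate is no measure here. CDKN1A had a per-line change of -0.77 in Hep3b, where the other 5 lines were above 0. PRR24 stood at -0.69 in Hep3b. HLE lay apart in 3 list medians, at -0.31 for the TGF-beta cytostatic program, -1.52 for G1/S and replication genes and 0.47 for hepatocyte genes. Huh1 lay apart at 0.51 for the mesenchymal list. HLE kept the least SFPQ, 10.7% of its control level, and the libraries labelled Hep3b lack hepatocyte markers. Whether either bears on these values was not tested. Without the libraries labelled Hep3b CDKN1A changed by 0.29 (adjusted p = 0.039, against 0.57 with them) and PRR24 by 0.88 (adjusted p = 0.00686, against 0.0567).

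The change after knockdown differed between cells with and without TGF-beta, by the test of the difference, for 12 named genes. As all 34 genes called by that test had 1 sign in 6 of 6 lines, such agreement adds no support. The differences, with minus without TGF-beta, were 1.14 for TMEM160, 0.99 for ANGPTL4, 0.95 for PRR24, 0.88 for PLSCR3, 0.79 for C4orf48, 0.76 for GPR56, 0.64 for ANKRD9, 0.61 for RUNX1, 0.60 for SKIL, 0.58 for ZNF579, 0.54 for NR2F6 and 0.53 for PLOD2, each positive in all 6 lines. The knockdown change of PRR24 with TGF-beta had an adjusted p of 0.0567 and that of ANKRD9 one of 0.329, so for these 2 genes the difference passed and the change itself did not over 6 lines, while that of PRR24 did without the libraries labelled Hep3b.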

How the results depend on the processing

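For the knockdown with TGF-beta the number of genes called was 3639, and it was within 1.5 times of that under other pseudocounts, scalings and filters, except that 2417 were called with no filter on low values. Leaving out a line gave 2315 to 2952 calls, the fewest without SK-HEP1. Without TGF-beta the number was 2608, 1152 with no filter on low values and 1341 to 2221 with a line left out. Without the replicate block, that is without pairing by line, limma called 0 genes in each setting, with 734 genes at an unadjusted p under 0.05 with TGF-beta and 633 without. The test of the difference was the least stable. It called 34 genes, but 13 with a pseudocount of 0.1, 4 with no filter, 18 with short RNA kept, 15 without trend and robust shrinkage, 22 with GC trends removed and 8 to 28 with a line left out. The rank correlation of change with GC content was 0.17, and 0.00651 once GC trends were removed. No result changed sign past the threshold. Of 191 results for single genes, 179 stayed on their side of the threshold after common scaling and 177 after GC removal. Among the lines left out, SK-HEP1 cost the most single-gene calls, 21. Counts of list members called moved with scaling for many lists. Depth limits low genes most in the Huh7 siSFPQ library.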

Other observations

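Some list members were expressed in too few lines to be tested, and their highest levels are given as values only. The matrix proteoglycan gene BGN reached 89.0 FPKM in siSFPQ libraries with TGF-beta and 7.94 FPKM in siCTL libraries. SNAI2, a transcription factor of epithelial-mesenchymal transition, reached 60.1 FPKM in siSFPQ and 37.9 FPKM in siCTL libraries, and the collagen gene COL1A2 reached 124 FPKM in siSFPQ and 83.6 FPKM in siCTL libraries. The integrin gene ITGB6 reached 47.6 FPKM in siSFPQ and 31.7 FPKM in siCTL libraries. VCAM1, an adhesion molecule induced by NF-kB, reached 2.65 FPKM in siSFPQ and 8.32 FPKM in siCTL libraries.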
